A study of Mus musculus with 3 samples.

Results

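The genes described here encode granule proteins, alarmins and receptors of neutrophils, and they were chosen by name: S100a8, S100a9, Ngp, Camp, Ltf, Mpo, Elane, Retnlg, Mmp8 and Csf3r. All 10 had a probe, 11 probes in all, among the 20284 genes that could be named on the arrays. The data came from 3 one-colour Agilent arrays of mouse liver from the c57BL6/J strain, 1 each for human YAP (WT), YAP (1SA) and YAP (2SA), taken 2 days after gene delivery. YAP carries growth signals to TEAD factors when the Hippo pathway does not restrain it, and 1SA and 2SA are active mutants that escape this restraint. All 3 groups had hydrodynamic gene delivery, a rapid tail vein injection of plasmid, given to young adult male mice per the study's methods. The plasmid's albumin promoter and AFP enhancer direct expression to hepatocytes, and only some hepatocytes take it up, so each liver was a mosaic. The study describes the injection itself as injuring the liver physically. No liver without YAP and no uninjected liver was analysed here. The labels do not give the number of animals behind an array. With 1 array per group no difference could be checked in a replicate, no test between groups was possible, and the construct cannot be told apart from the liver it was read in.

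Neutrophils are short-lived white cells that leave the bone marrow and enter injured tissue, where they release antimicrobial proteins stored in granules. Granules are filled in order as the cell matures. The azurophil granule comes first and carries Mpo and Elane, and the specific granule follows and carries Ltf, Camp and Ngp. Retnlg belongs to later cells, and Csf3r is a receptor of the neutrophil lineage. S100a8 and S100a9 form calprotectin, a calcium-binding dimer of the neutrophil cytosol that acts as an alarmin once released. In liver these transcripts are commonly read as a sign of neutrophils in sinusoids and tissue. In whole liver RNA, fewer cells of a type and less RNA per cell cannot be told apart.

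Intensities were compared as normalised log2 values, which are log2 of the intensity minus log2 of the array's own 75th percentile. A probe counted as measured where it was flagged well above background. Between 28972 (WT) and 30784 (2SA) of the 55681 probes were measured on an array, and no spot was saturated. Every member probe was read from 1 spot per array, so 2 measures of technical error were used. Probes with repeated spots gave an SD of a difference between 2 arrays of 0.08 on the log2 scale at the signal of the brightest members and 0.13 at the signal of S100a8. The error modelled by Feature Extraction for each spot gave a larger error of a difference, between 0.20 and 0.22. Neither covers the spread between animals. Levels of different probes are not compared, since brightness depends on the probe.

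The members fell into 3 kinds by detection. S100a8, S100a9, Camp, Elane, Retnlg and Csf3r were measured on all 3 arrays. Ltf and Mpo were measured on the 2SA array only. Ngp and Mmp8 were not well above background on any array. Among all genes with a symbol, 67.2% were measured on all 3 arrays, 2.05% on 2SA only, 0.882% on 1SA only and 27.0% on none. Readings in all 3 livers thus came from 6 genes, and the granule proteins Ngp and Mmp8 gave no level above background. For Csf3r and Elane among the 6, the match of the bright probe to its transcript was not checked. The neutrophil label is therefore that of the list and not a result of these levels.

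None of the 6 members measured on all 3 arrays differed by 2-fold in any comparison. The largest ratio between arrays was 1.58-fold, for Retnlg in WT over 2SA. Against WT, 0 of the 6 were 2-fold higher in 1SA and 0 were lower, where 0.746% of all probes were higher and 0.974% were lower. In 2SA against WT the members again gave 0 and 0, with 0.923% of all probes higher and 0.732% lower. In 2SA against 1SA they gave 0 and 0, with 1.89% higher and 1.27% lower. The median difference of the 6 members was 0.08 in 1SA against WT, 0.02 in 2SA against WT and -0.06 in 2SA against 1SA. The medians over all genes measured on the arrays compared were -0.002, -0.03 and -0.03. Of the 18 member differences, 8 were larger than 2 SD from repeated spots and 3 were larger than 2 modelled errors. Those 3 were S100a8 in 2SA against WT, Retnlg in 2SA against WT and Elane in 2SA against 1SA.

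**Figure D1:**
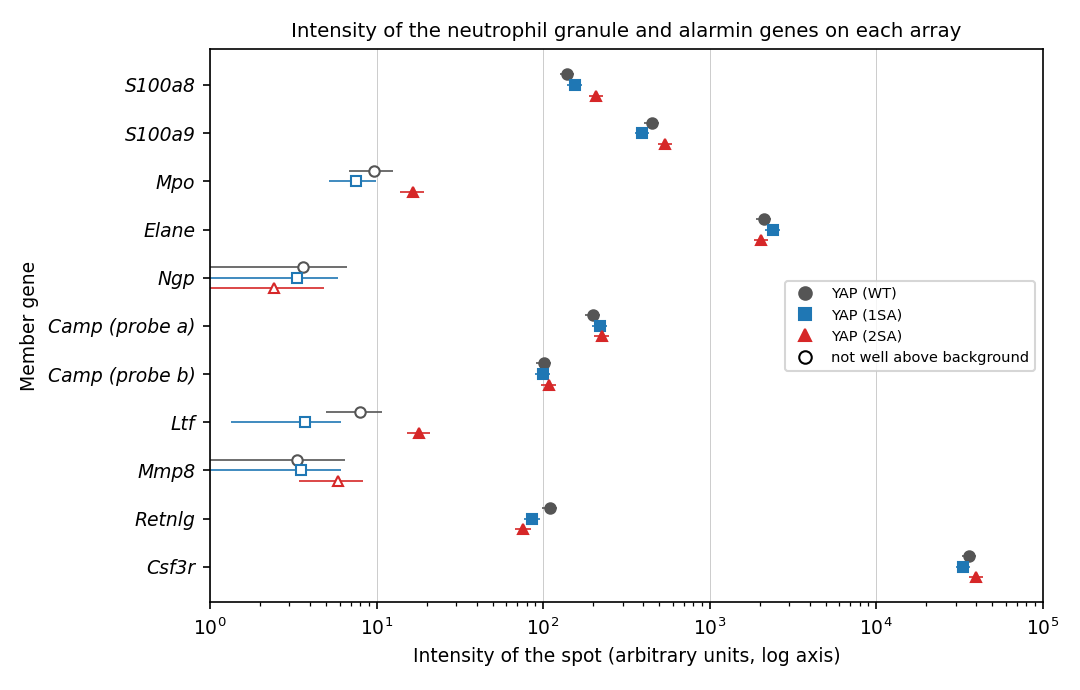
Intensity of each member probe on the WT, 1SA and 2SA arrays before scaling, on a log axis, with the error modelled by Feature Extraction as bars (cut at 1 on the left). Open symbols were not well above background. Ngp and Mmp8 are open on all 3 arrays, and Mpo and Ltf are filled on 2SA only.

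The alarmin pair came first. S100a8, the smaller subunit of calprotectin (NM_013650), gave intensities of 140.1 (WT), 156 (1SA) and 209 (2SA), with modelled errors of 14.3, 15.7 and 21.0. WT was lowest and 2SA highest, and the order stayed after scaling, with normalised log2 values of -1.05, -0.83 and -0.61. 1SA lay 0.23 above WT, within 2 SD of repeated spots, and 2SA lay 0.44 above WT, beyond 2 SD (ratio 1.36). The difference of 0.21 between the mutants was within 2 SD.

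S100a9 (NM_009114), its partner, gave 449 (WT), 395 (1SA) and 542 (2SA) units of intensity, with modelled errors of 45.0, 39.6 and 54.2. The 2SA array was highest here too, and 1SA was lowest. Subtracting the WT value left -0.11 for 1SA and 0.13 for 2SA on the log2 scale, both within 2 SD of repeated spots. The difference between the mutants, 0.24 higher in 2SA, exceeded 2 SD of repeated spots (0.18) but not the modelled error doubled. The local background of the S100a9 spot was marked as an outlier on the 2SA array, whereas the spot itself was not. The pair thus shared a highest value on 2SA and differed in the order of WT and 1SA.

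S100a8 and S100a9 lie beside each other on chromosome 3, with no gene between them in the RefSeq table. The bases before their starts are shown because the pair shares its highest array. The sequences are from RefSeq for build GRCm38.p6, the 250 bases before the gene's start, 5′ to 3′ on the strand of the gene, chr3:90668821-90669070 on the plus strand for S100a8 and chr3:90695722-90695971 on the minus strand for S100a9. Capitals mark matches to TTNNGNAA, a C/EBP motif in which N is any base, and to GAGGAA, a PU.1 motif, on either strand. Both factors are regulators of myeloid genes.
S100a8: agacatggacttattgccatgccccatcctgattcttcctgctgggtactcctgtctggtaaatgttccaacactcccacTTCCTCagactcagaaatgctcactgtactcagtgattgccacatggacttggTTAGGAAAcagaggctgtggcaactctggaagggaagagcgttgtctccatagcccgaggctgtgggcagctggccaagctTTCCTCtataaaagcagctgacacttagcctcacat
S100a9: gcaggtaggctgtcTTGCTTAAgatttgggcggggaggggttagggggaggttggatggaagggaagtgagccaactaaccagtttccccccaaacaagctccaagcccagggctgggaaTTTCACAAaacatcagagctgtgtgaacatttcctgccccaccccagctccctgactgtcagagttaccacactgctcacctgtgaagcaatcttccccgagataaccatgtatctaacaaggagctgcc
S100a8 held 1 C/EBP match and 2 PU.1 matches, and S100a9 held 2 C/EBP matches and no PU.1 match.

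Of the azurophil granule genes, Elane was measured on all 3 arrays and Mpo on 1. Elane (NM_015779) encodes neutrophil elastase, a serine protease. Elane read 2118 (WT), 2391 (1SA) and 2042 (2SA) in intensity, with modelled errors of 212, 239 and 204. 1SA was highest and 2SA lowest, with normalised log2 values of 2.86, 3.12 and 2.68. The differences were 0.25 in 1SA against WT, -0.19 in 2SA against WT and -0.44 in 2SA against 1SA. All 3 exceeded 2 SD of repeated spots, which was 0.15 at this signal. The last exceeded 2 modelled errors, and it is a ratio of 0.737.

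Mpo (NM_010824) encodes myeloperoxidase, the enzyme that makes hypochlorous acid and the classical content of the azurophil granule. Mpo read 9.7 (WT), 7.6 (1SA) and 16.6 (2SA) in intensity, with modelled errors of 2.91, 2.36 and 2.75, and it was well above background on 2SA only. By bounds, Mpo was at least 1.21-fold higher in 2SA than in WT and at least 1.40-fold higher than in 1SA. These bounds set the 2SA value against the higher of the dim value and the lowest measured signal of the dim array. That signal was 12.5 on WT and 10.3 on 1SA. It is no strict ceiling for unmeasured probes, since S100b read 15.9 on WT and was not well above background. All bounds given here are therefore approximate. Repeated spots this dim had 2 SD of a difference of 0.83 on the log2 scale, and both Mpo bounds lay inside it.

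Among the specific granule genes, Camp was the one measured on all 3 arrays. Camp (NM_009921) encodes the precursor of the antimicrobial peptide CRAMP, the mouse cathelicidin. Its brighter probe (a) read 199.6 (WT), 220.0 (1SA) and 226 (2SA) in intensity, and its dimmer probe (b) 100.8, 99.6 and 108. After scaling, 1SA minus WT was 0.22 by the brighter probe and 0.06 by the dimmer, and 2SA minus WT was 0.04 and -0.03. In 2SA against 1SA the differences were -0.18 and -0.09. Every Camp difference was within 2 SD of repeated spots, and the 2 probes had opposite signs in 2SA against WT.

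Ltf (NM_008522) encodes lactoferrin, an iron-binding protein of the specific granule. Ltf read 7.9 (WT), 3.7 (1SA) and 18.1 (2SA) in intensity, with modelled errors of 2.92, 2.38 and 2.88, and as for Mpo only the 2SA value was well above background. By bounds, Ltf was at least 1.32-fold higher in 2SA than in WT and at least 1.52-fold higher than in 1SA. Both bounds lay inside 2 SD of repeated spots at this signal, as for Mpo. Ngp (NM_008694), neutrophilic granule protein, had intensities of 3.6, 3.3 and 2.4 on WT, 1SA and 2SA. Mmp8 (NM_008611), the neutrophil collagenase, had intensities of 3.3, 3.5 and 5.9. For these 2 genes no fold is given, because both sides were not well above background in each comparison. Ngp, Camp and Ltf lie on the same stretch of chromosome 9, with 18 genes of the table between Camp and Ngp and 25 between Ngp and Ltf, and in these livers their detection differed.

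Bounds of at least 2-fold were met by neither Ltf nor Mpo. Of all probes measured on 1 array of the pair, 8.47% had such a bound in 2SA against WT, and 12.5% in 2SA against 1SA. The bases before both genes are shown because these 2 members shared the same detection, with the same source, length and capitals as above, chr9:111019042-111019291 for Ltf and chr11:87793534-87793783 for Mpo, both on the plus strand.
Ltf: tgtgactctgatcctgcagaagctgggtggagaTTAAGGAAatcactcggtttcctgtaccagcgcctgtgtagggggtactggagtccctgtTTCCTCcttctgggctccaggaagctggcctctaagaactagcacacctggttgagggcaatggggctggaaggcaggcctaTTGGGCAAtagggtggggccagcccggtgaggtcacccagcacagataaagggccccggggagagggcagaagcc
Mpo: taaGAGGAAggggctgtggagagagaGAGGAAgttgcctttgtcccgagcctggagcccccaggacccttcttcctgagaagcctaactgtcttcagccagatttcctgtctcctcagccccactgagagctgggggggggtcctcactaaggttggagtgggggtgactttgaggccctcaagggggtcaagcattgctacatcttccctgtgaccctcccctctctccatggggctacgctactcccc
Ltf held 2 C/EBP matches and 1 PU.1 match, and Mpo held 2 PU.1 matches and no C/EBP match.

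The last pair encode a secreted protein and a surface receptor. Retnlg (NM_181596) encodes resistin-like gamma, a secreted protein of mouse neutrophils. Retnlg read 109.6 (WT), 86.4 (1SA) and 76.1 (2SA) in intensity, with modelled errors of 11.5, 9.1 and 8.1. WT was highest and 2SA lowest, the reverse of S100a8. Retnlg differed by -0.27 in 1SA against WT, -0.66 in 2SA against WT and -0.40 in 2SA against 1SA, and all 3 exceeded 2 SD of repeated spots. The ratio of 2SA to WT was 0.632, the largest difference among the 6 members measured on all 3 arrays. It was also the one difference past 1.5-fold among these 6, where 3.72% of all probes were 1.5-fold lower in 2SA than in WT.

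Csf3r (NM_007782) encodes the receptor for granulocyte colony-stimulating factor, the main growth signal of the neutrophil lineage. Csf3r read 36349 (WT), 33320 (1SA) and 39935 (2SA) in intensity, with modelled errors of 3635, 3332 and 3994. After scaling these became nearly equal, with normalised log2 values of 6.97, 6.92 and 6.97. 1SA lay -0.05 from WT, and 2SA lay 0.0002 from it, both within 2 SD of repeated spots. Under quantile normalisation the difference between the mutants became 0.17, against 0.05 here. The Csf3r probe was thus bright on all 3 arrays while the receptor's ligand, Csf3, was not well above background on any (intensities of 3.2, 2.6 and 2.6). The sequences of the probes were not used here, so the match of the bright Csf3r and Elane probes to their transcripts was not checked. In the RefSeq table a non-coding gene overlaps each of Csf3r, Mpo and Mmp8, and none overlaps the other 7 members.

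**Figure D2:**
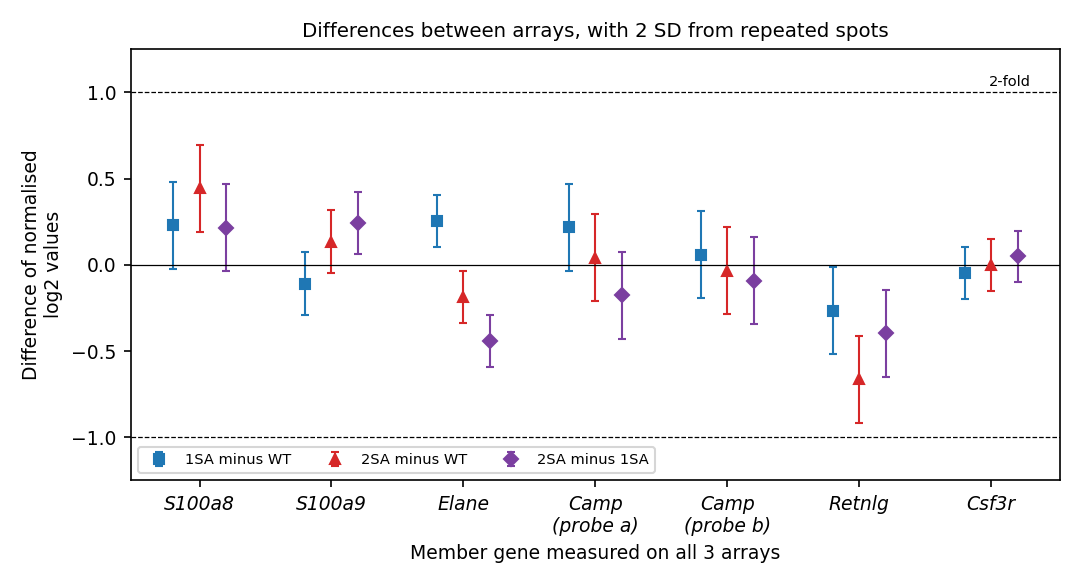
Differences of normalised log2 values between arrays for each member probe measured on all 3, with bars of 2 SD of a difference from repeated spots at like signal, which leave out the spread between animals. Dashed lines mark 2-fold. Every symbol lies inside them, and S100a8 and Retnlg point in opposite directions in 2SA minus WT. Elane lies on opposite sides of 0 in 1SA minus WT and 2SA minus WT, with bars that do not reach 0.

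Retnlg was the one member with a match to the TEAD motif GGAATG, the DNA element through which YAP acts. The motif was found in 1 of 10 member promoters, against 12.6% of the 32851 promoters of the RefSeq table. The C/EBP motif was found in 6 of 10 members, against 36.8% of all promoters, and the PU.1 motif also in 6 of 10, against 23.3%. These matches are letters in a window and do not show binding. The Retnlg sequence lies at chr16:48872358-48872607 on the plus strand, and in it the capitals mark a C/EBP match (TTCTGCAA) and then the TEAD match on the opposite strand (CATTCC).
Retnlg: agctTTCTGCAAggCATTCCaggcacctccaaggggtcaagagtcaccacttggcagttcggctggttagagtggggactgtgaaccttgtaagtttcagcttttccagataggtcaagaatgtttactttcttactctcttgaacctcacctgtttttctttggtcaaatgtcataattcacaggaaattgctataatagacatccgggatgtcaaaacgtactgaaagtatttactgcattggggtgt

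Further genes of neutrophils were then read from 3 lists, 43 genes in all, of which 40 had a probe. Of these, 21 were measured on all 3 arrays, 10 on none, 6 on 2SA only and 1 on WT only. The genes at background on all 3 arrays included Cxcr2 and Cxcr1, the chemokine receptors that guide neutrophils, Mmp9, the gelatinase of the neutrophil granule, Cd177, a surface protein of neutrophils, and Stfa1, Stfa2l1 and Stfa3, stefins of mouse neutrophils. Another stefin, Stfa2, was measured on all 3 arrays and lay -0.92 (1SA) and -0.90 (2SA) from WT. Those measured on 2SA only were Clec4e, Cst7, Il1r2, Padi4, Prss57 and Trem3. Padi4 citrullinates histones in neutrophils. It read 9.5 (WT), 8.0 (1SA) and 33.0 (2SA) in intensity, so it was at least 2.40-fold higher in 2SA than in WT. Trem3 had intensities of 8.8, 6.5 and 48.4, at least 3.52-fold higher in 2SA than in WT. The others had smaller bounds against WT, down to 1.019-fold for Prss57, and Il1r2 had none. With Ltf and Mpo, 2 of 10 members and 6 of 40 further genes were measured on the 2SA array alone, beside 2.05% of all genes. That array also had the most measured probes, and its lowest measured intensity, 5.94, lay below those of WT and 1SA. The part of this wider range in the count was not tested.

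The azurophil list had 3 of 8 genes measured on all 3 arrays. Prtn3, proteinase 3, lies beside Elane on chromosome 10. It read 26.6 (WT), 54.1 (1SA) and 26.7 (2SA) in intensity, highest on 1SA as for Elane. Prtn3 was 2-fold higher in 1SA than in WT, by 1.098 on the log2 scale, and 2-fold lower in 2SA than in 1SA (-1.23). It was the one gene past 2-fold among the 3 measured on all arrays. Over all genes measured on both arrays, 101 of 13675 were 2-fold higher in 1SA than in WT, and 162 of 13873 were 2-fold lower in 2SA than in 1SA. Ms4a3, a gene of early granulocytes measured on WT only, read 15.5 (WT), 2.4 (1SA) and 2.3 (2SA) in intensity. Its bounds below WT were 1.43-fold in 1SA and 2.87-fold in 2SA, and neither is a strict lower limit. These 2 bounds differ because the lowest measured intensity was 10.3 on 1SA and 5.94 on 2SA. On 2SA, Itga2b read 12.9 and was not well above background. On WT, S100b read 15.9, above Ms4a3, and was not well above background. By its bound, Cst7, a cystatin of leukocytes, was at least 2.25-fold higher in 2SA than in 1SA. Ctsg, cathepsin G of the same granule, differed from WT by 0.16 (1SA) and 0.10 (2SA). Cebpe, a transcription factor needed for specific granules, differed by 0.16 and -0.66.

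Among further specific granule genes the median was -0.69 in 1SA minus WT (5 genes), 0.17 in 2SA minus WT (6 genes) and 0.89 in 2SA minus 1SA (5 genes). Chil3, a chitinase-like protein made by neutrophils and by activated macrophages, was past 2-fold in every comparison, at -1.13, 1.24 and 2.37. Cybb and Cyba, the membrane subunits of the NADPH oxidase shared by neutrophils and macrophages, were 0.90 and 0.89 higher in 2SA than in 1SA. Lcn2, an iron-binding granule protein that hepatocytes also make in the acute phase response, went the other way, at 0.49, -0.40 and -0.89 in the same order of comparisons.

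The mature neutrophil list had a median of -0.15 in 1SA against WT, 0.09 in 2SA against WT and 0.14 in 2SA against 1SA. In 1SA against WT 2 of the 13 genes measured on both arrays were 2-fold lower, Clec4d (-1.61) and Slpi (-1.07). In 2SA against WT 0 of the 14 genes measured on both passed 2-fold, where 158 of 13785 genes were higher and 79 were lower. The highest of the 14 was Fpr2 (0.99) and the lowest was Stfa2 (-0.90). By bounds Trem3 and Clec4e were at least 3.52-fold and 2.01-fold higher. Of all probes measured on 1 array of this pair, 8.47% had a bound of at least 2-fold higher. Slfn4, a gene of myeloid cells not measured on 1SA, lay below WT in 1SA by at least 5.26-fold and was at least 6.47-fold higher in 2SA than in 1SA. It read 72.4 (WT), 13.05 (1SA) and 97.8 (2SA) in intensity. In 2SA against 1SA 3 of 13 were 2-fold higher, among them Clec4d, a lectin receptor of myeloid cells (2.15), and Itgb2, the beta chain of leukocyte integrins (1.09). Clec4d and Itgb2 are also expressed by monocytes and macrophages. Over all genes measured on both arrays, 156 of 13675 were 2-fold lower in 1SA than in WT, and 346 of 13873 were 2-fold higher in 2SA than in 1SA.

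**Figure D3:**
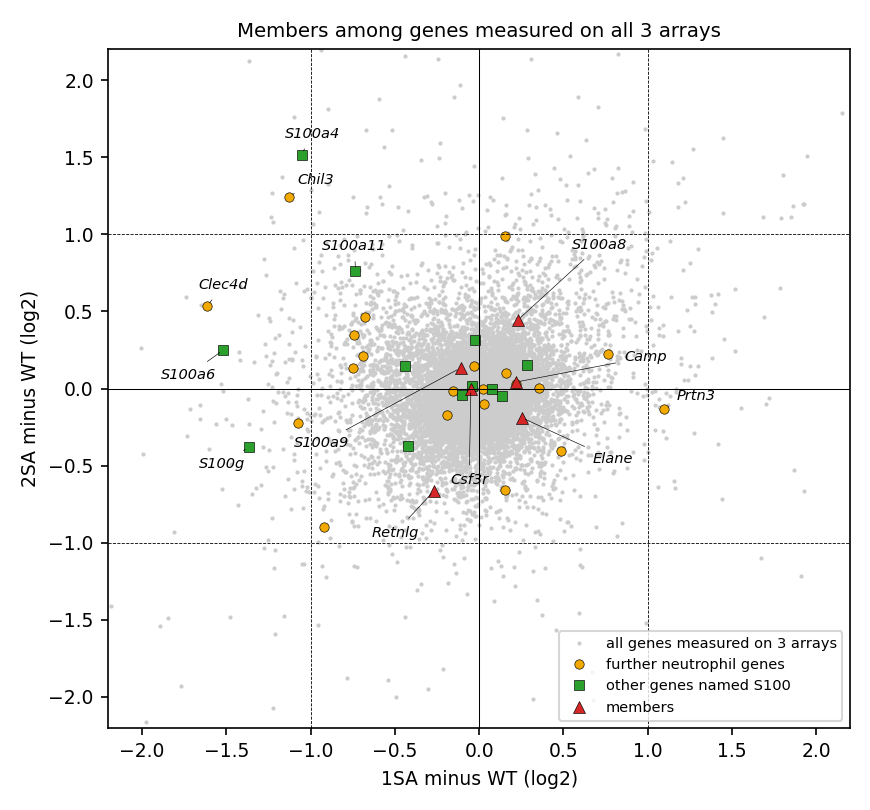
Differences from WT in 1SA (x axis) and 2SA (y axis), log2, for genes measured on all 3 arrays, of which 30 of 13626 lie outside the axes. Both axes share the WT array. The 6 members (triangles) lie inside the dashed 2-fold lines, whereas S100a4 and Chil3 lie outside both.

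Other genes that carry the S100 name were set beside S100a8 and S100a9. Of 16 such genes, 12 were measured on all 3 arrays. In 1SA against WT 3 were 2-fold lower, S100a6 (-1.52), S100g (-1.37) and S100a4 (-1.05). In 2SA against WT S100a4 was 2-fold higher (1.52). In 2SA against 1SA 3 of 12 were 2-fold higher: S100a4 (2.57), S100a6 (1.77) and S100a11 (1.49). Among all genes measured on both arrays, 156 of 13675 were 2-fold lower in 1SA than in WT. In 2SA, 158 of 13785 were 2-fold higher than in WT and 346 of 13873 were 2-fold higher than in 1SA. This list, as the others, was chosen with earlier results of these data known. The second S100a4 probe gave -0.60, 1.38 and 1.98 in the same 3 comparisons. S100a4 and S100a6 are calcium-binding proteins of fibroblasts, macrophages and other motile cells. The corresponding differences between the mutants were 0.21 for S100a8 and 0.24 for S100a9. S100a4 itself read 412 (WT), 188 (1SA) and 1295 (2SA) in intensity.

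Of 14 growth factors, attractants and related receptors, 7 were measured on no array, 6 on all 3 and Tnf, an inflammatory cytokine, on 2SA only, where 27.0% of all genes were measured on none. The 7 included Csf3, Csf2, Cxcl2, Cxcl3 and Cxcl5. Cxcl1, a chemokine that draws neutrophils through Cxcr2, was measured on all 3 and lay 0.40 (1SA) and 0.17 (2SA) above WT. Csf1, the growth factor of macrophages, was 2.77 higher in 2SA than in WT and 2.91 higher than in 1SA by its brightest probe. The other 2 Csf1 probes gave 1.65 and 1.76 against WT, and 2.63 and 2.74 against 1SA. C5ar1, the complement receptor of neutrophils and macrophages, had intensities of 45.5, 23.2 and 176, and was 1.81 higher in 2SA than in WT. Ccl3, an attractant of monocytes and neutrophils, was 1.58 higher in 2SA than in 1SA.

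Of the other alarmins, Hmgb1, a nuclear protein released by dying cells, gave -0.10 for 1SA and -0.26 for 2SA, both minus WT, by its brightest probe. Its other probes gave values of both signs for 1SA, from -0.07 to 0.18, and values from -0.28 to -0.12 for 2SA. Il33, an alarmin of tissue cells, gave 0.11 for 1SA and 0.64 for 2SA. Tlr4, a receptor for S100a8 and S100a9, gave -0.90 and -0.19. Ager, another receptor, was measured on 2SA only, where it was at least 1.39-fold higher than in WT.

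**Figure D4:**
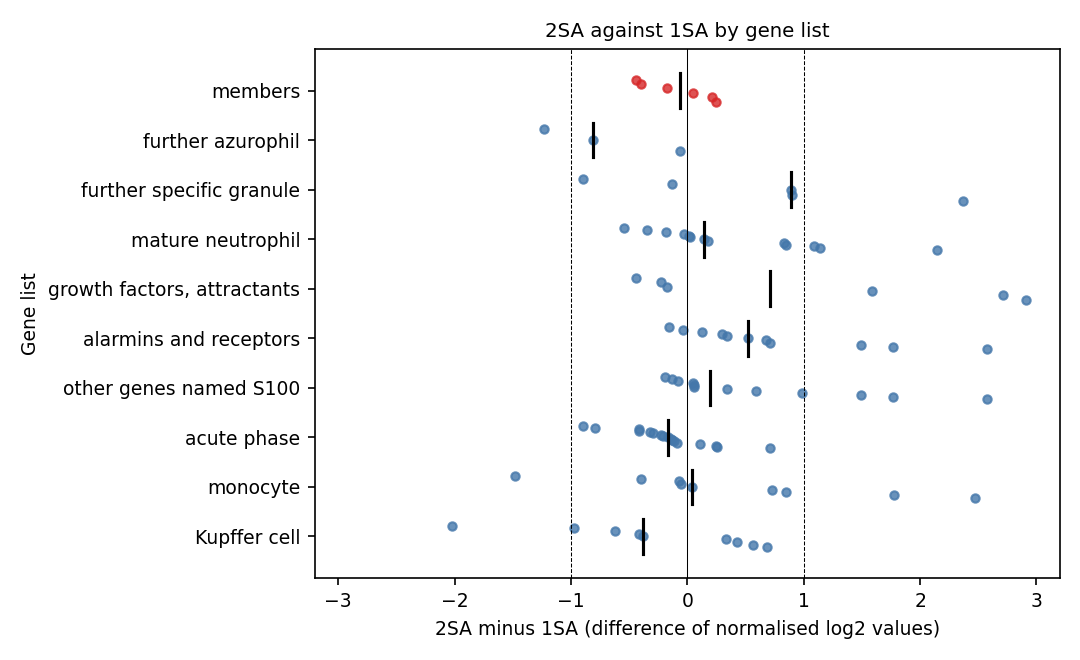
Differences between 2SA and 1SA (log2) for the genes of each list measured on both arrays, with the median as a black bar and dashed lines at 2-fold. The 6 members lie between -0.44 and 0.24, inside the 2-fold lines, whereas further specific granule, mature neutrophil and S100 genes reach beyond 2-fold higher.

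Markers of other cells moved between these livers, and their part in the member differences was not tested. Red cell markers, 9 of 12 measured on all 3 arrays, had summed scaled intensities of 205 (WT), 348 (1SA) and 272 (2SA), and Epb42 was not well above background on any. Kupffer cell markers, 9 of 9 measured, summed to 256, 182 and 155. Monocyte markers, 9 of 10 measured, summed to 422, 479.7 and 439.8, but their median was -0.05 in 1SA minus WT and 0.43 in 2SA minus WT, with 7 of 9 above 0 in the latter. A bright probe of Ms4a4c carried much of that sum, and its other 2 probes had the opposite sign in both comparisons. Hepatocyte markers, 9 of 10 measured, summed to 6432, 6968 and 5639. Each sum is in multiples of the array's 75th percentile, which was 290.8 (WT), 275.7 (1SA) and 319.5 (2SA). The hepatocyte sums ran in the reverse order of that percentile. The part of this scaling in the sums was not tested. Elane and Prtn3 were thus highest on the array on which red cell and hepatocyte sums were highest, and the Kupffer cell sum had the array order of Retnlg, although 3 of the 9 markers in it (Timd4, Marco and Cd5l) had that order themselves. Acute phase genes, 17 of 17 measured, had medians of 0.20 (1SA minus WT), -0.07 (2SA minus WT) and -0.17 (2SA minus 1SA), and 0 of 17 passed 2-fold. In that list Saa3, an acute phase protein also made by macrophages, was 0.59 higher in 2SA than in WT.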

How the data were processed

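Total RNA of liver was labelled with Cy3 and hybridised to 1 Agilent array per group. The authors scanned the arrays and extracted intensity with Agilent Feature Extraction 10.10.1.1, per the file headers, on a design placed on mm9. The deposited intensity is background-subtracted and detrended, on a linear scale, and carries no scaling from array to array. The authors' series matrix repeats this intensity times 1 constant per array (3.02, 3.08 and 2.81 for WT, 1SA and 2SA), whose source is not stated, so it gave the same values after scaling. Its columns had medians of 61.8, 58.4 and 62.3.

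Non-control spots flagged as outliers were left out (181, 148 and 182), spots of a probe were averaged on the log2 scale, and log2 of the 75th percentile (intensities of 290.8, 275.7 and 319.5) was subtracted. A probe was measured where at least 50% of its spots were well above background. A gene took its brightest probe measured on all 3 arrays, otherwise its brightest. Names came from RefSeq accessions matched to a GRCm38.p6 table (26762 of 55681 probes). All 3 arrays lay on 1 slide. The members, lists and the 2-fold threshold were chosen with earlier results of these data known. Genes were named as members, as list genes past 2-fold or defining a list, or as the 5 nearest in pattern to the brightest member. Fold recovery was tested on simulated data. Software was Python 3.11.15, pandas 2.3.3, numpy 2.4.6, matplotlib 3.10.9, R 4.3.3 and limma 3.58.1 (normexp). The alternatives tried were array median scaling, quantile normalisation, the 75th percentile over measured probes, normexp with an offset of 50, matrix values, the mean of a gene's probes, no filter on dim probes, 1.5-fold and 3-fold thresholds, and outlier spots kept. With 1 array per group, the number of arrays limits the precision.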

Additional observations from a re-analysis of the deposited data

Results flagged for a closer look

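Elane lay above WT in 1SA (0.25) and below WT in 2SA (-0.19), each beyond 2 SD of a difference from repeated spots, and 2SA was lower than 1SA (-0.44). By the larger modelled error the differences from WT were 1.24 and 0.92 errors, both within 2. It was picked out because its single array of each mutant moved to opposite sides of WT. S100a9 also lay on opposite sides of WT (-0.11 in 1SA and 0.13 in 2SA), both within 2 SD of repeated spots. The Elane difference between the mutants was not tested, and it rests on 1 spot per array.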

How the results depend on the processing

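No paired analysis was possible because 1 array stood for every group, and no slide block was fitted since all arrays lay on 1 slide. Among the 18 differences of single members, no sign changed under any of the 8 alternatives that recompute values. Several of these could not move them. Matrix values, kept outlier spots and no filter on dim probes left all 18 as they were by construction. The mean of a gene's probes could alter Camp only. Normexp shrank 3 of them by more than 0.10, the SD of a difference over all repeated spots, S100a8 in 2SA against WT to 0.31, and Retnlg to -0.46 in 2SA against WT and -0.29 in 2SA against 1SA, of which the last moved by less than the SD at its own signal (0.13). Quantile normalisation moved 1, Csf3r in 2SA against 1SA, to 0.17, and by the SD at its signal (0.08) also Csf3r in 1SA against WT, to -0.14. With no filter on dim probes, all 10 members entered and the median became -0.049 in 1SA against WT and 0.13 in 2SA against 1SA, both on the other side of 0, while 1 member was then 2-fold higher in 2SA than in WT, 1 was higher in 2SA than in 1SA and 1 was lower in 1SA than in WT. These calls rest on values not well above background. With a 1.5-fold threshold 1 member, Retnlg, was lower in 2SA than in WT. The other counts stayed at 0. Normexp shrinks differences of dim probes by construction. Dim signal limits Ngp, Mmp8, Ltf and Mpo, for which a change smaller than the distance to background could not be seen.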

Other observations

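Markers of other white cells and platelets were read beside the members. Of 10 markers of eosinophils, basophils and mast cells, 6 were not well above background on any array, among them Prg2 and Epx, the granule proteins of eosinophils, and Mcpt8, a protease of basophils. Lymphocyte markers had a median difference of 0.03 in both mutants against WT over 7 genes. In 2SA against 1SA their median was 0.05 over 8 genes, with 4 above 0 and 4 below. Cd3g, a chain of the T cell receptor complex, was 1.22 higher there, at dim intensities of 29.4 (WT), 16.6 (1SA) and 44.8 (2SA). The T cell genes Cd3e (-0.26) and Cd4 (-0.24) were lower in the same comparison. The 5 measured platelet markers had medians of -0.28 (1SA) and -0.13 (2SA) against WT, and 0.11 in 2SA against 1SA. Pf4, a platelet chemokine, was 0.96 higher in 2SA than in WT and 1.43 higher than in 1SA. It was the highest of the 5 in both comparisons, and 3 of the 5 lay below 0 in 2SA against WT. Among the 9 measured monocyte markers, 1 was 2-fold higher in 1SA than in WT, Ccr2 (2.33), while 5 lay below 0 there. Ccr2 was lower in 2SA than in 1SA (-1.48). In 2SA against WT 2 of the 9 were 2-fold higher, F13a1 (1.88) and Cx3cr1 (1.20). Over all genes measured on both arrays, 101 of 13675 were 2-fold higher in 1SA than in WT. In 2SA against WT 158 of 13785 were 2-fold higher.

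The genes nearest in pattern to Csf3r, the brightest member, were Mtg1, Elmo3, Ptp4a2, Tmem258 and Lrrc8e, by the distance between both differences from WT over 3 arrays. Within a distance of 0.1 of Csf3r lay 12.7% of the 13625 other genes, and within the same distance of Retnlg lay 0.242%, so likeness over 3 arrays separates few genes near 0.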
